A study of Drosophila melanogaster with 96 samples.

Results

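The 5 genes described here are known from the fat body of the fly head and from sex determination: takeout (to), Cyp4d21 (also called sxe1), sxe2, fit and doublesex (dsx). They were chosen by name, as the 5 of 17610 gene rows of the count table whose FlyBase symbol is one of these names, and all 5 were found and passed the filter on low counts. The libraries are RNA-seq of heads of the ISO1 strain, labelled as adult males, in 4 conditions. The first 3 are constant darkness (DD) at a temperature of 18 °C, 25 °C or 29 °C, and the last is a light-dark cycle (LD) of 12 h of light a day at 25 °C. Each condition has 24 libraries, from days 4 and 5, 6 hours of the day from 0 to 20 at steps of 4 h, and 2 biological replicates, 96 in all. The labels do not say how many heads were pooled, how old the flies were, or how hour 0 stands to lights-on.

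In Drosophila, sex is set in each cell by a splicing cascade in which Sex-lethal and transformer decide whether doublesex makes a male or a female transcription factor. The fat body is an organ of storage and secretion, and its layer in the head around the brain is one of the tissues where that factor shapes output. There, to encodes a secreted protein of the juvenile-hormone-binding family that is known as an output of the circadian clock and for roles in feeding and male courtship. Cyp4d21 and sxe2, a cytochrome P450 and a lipase-family gene, were named for sex-specific expression in this tissue and, with to, are known as higher in males. The gene fit (female-specific independent of transformer) encodes a secreted peptide that is higher in females and is known for signalling protein satiety.

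In brief, each of the 5 genes had a pattern of its own. In LD to, Cyp4d21 and sxe2 rose and fell over the day, with peaks at hours 20.9, 16.7 and 4.86. In darkness only to and Cyp4d21 had a 24 h rhythm that passed the test, at 25 °C and 29 °C, and no gene of the 5 had one at 18 °C. The level of sxe2 at 18 °C was 0.438 times that at 25 °C in darkness. Its libraries in these conditions did not overlap, as for 4.64% of all genes tested. In contrast, dsx was highest at 18 °C. The level of fit moved from day to day and from library to library together with the yolk protein genes.

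Total counts ran from 17.3 M to 34.7 M per library, with a median of 21.1 M. The libraries hold transcripts that go against a label of males alone. The summed level of the yolk protein genes Yp1, Yp2 and Yp3, which encode yolk made in the female fat body and ovary, lay between 21593 and 71552 counts per 1000000 counts (CPM) in all 96 libraries, with medians by condition from 35793 to 40812 CPM. The male dosage compensation RNA roX1 was present beside them at 277 to 724 CPM, with medians of 379 CPM at 18 °C, 555 at 25 °C, 578 at 29 °C and 438 under LD. The 8 markers of egg chambers summed to at most 6.05 CPM in a library, nearly all of it from Cp18 and Cp19, with Cp38 at 0 in darkness, and the 6 of testis to at most 3.36 and the 6 of accessory gland to at most 0.422. The 6 gut markers summed to at most 29.3 CPM, and 10 fat body markers to 7529 to 19667 CPM. The sum of 6 neuron, eye and glia markers, mostly the rhodopsin gene ninaE, had medians of 48227 CPM at 18 °C, 60247 at 25 °C, 61199 at 29 °C and 38119 under LD. How far the sexes are mixed in these libraries, and its part in the results below, was not tested beyond the values given. In whole heads, fewer fat body cells and less RNA per cell cannot be told apart.

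On the BDGP6.54 annotation, to (FBgn0039298) lies on the plus strand of 3R, from 25240180 to 25241668, with 2 annotated transcripts and 1253 exonic bases. It sits in a tandem row of its family, 351 bases from CG11854 and 1284 bases from Jhbp7. Cyp4d21 (FBgn0031925) lies on the plus strand of 2L, from 7605600 to 7607701, with 1 transcript, and shares no bases with another gene. The gene sxe2 (FBgn0038398) lies on the plus strand of 3R, from 16083878 to 16087222, inside the span of Mhcl on the other strand, with 0 shared exonic bases. The gene fit (FBgn0038914) lies on the minus strand of 3R, from 21883924 to 21884454, and its 531 exonic bases overlap the noncoding asRNA:CR45046 on the same strand by 32 bases and CG31465 on the other strand by 67 bases. The gene dsx (FBgn0000504) spans 3R from 7924323 to 7967408 on the minus strand, with 7 transcripts, 9167 exonic bases and a 169-base overlap with lds. The count table gives 1 value for all transcripts of dsx, so its male and female forms are not separated here.

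Per kilobase of exon, fit was the highest of the 5 in every condition by its mean, at 418 ± 133 CPM per kb at 18 °C, 314 ± 125 at 25 °C, 267 ± 92.1 at 29 °C and 327 ± 102 under LD (SD, n = 24). The gene dsx was lowest in every condition, at 3.94 to 5.83 CPM per kb by condition mean, with at most 7.17 CPM per kb in a library. Between them, sxe2 was second at 25 °C (172 ± 20.7 CPM per kb), at 29 °C (205 ± 23.3) and in LD (152 ± 30.6), but below Cyp4d21 (138 ± 17.1) and to (85.3 ± 11.01) at 18 °C, where it stood at 75.4 ± 6.42. Apart from dsx, the libraries of genes next to each other in this order overlapped at 25 °C and in LD. At 18 °C those of to overlapped those of Cyp4d21 and of sxe2. At 29 °C those of fit overlapped those of sxe2, and those of Cyp4d21 overlapped those of to.

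**Figure D1:**
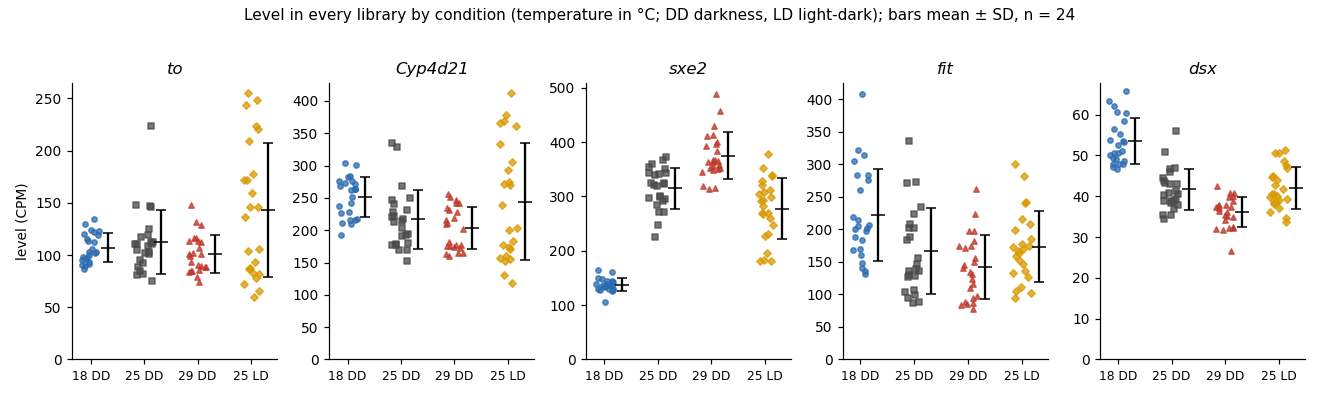
Level of each gene in CPM in all 24 libraries of each condition, with the mean and SD at the right of each cloud. The 18 °C cloud of sxe2, at 107 to 165 CPM, lies below all libraries of the other conditions, and dsx is highest at 18 °C, at 46.7 to 65.7 CPM.

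The regulator dsx rose as temperature fell. At 18 °C its level was 46.7 CPM in the lowest library, 51.8 in the median and 65.7 in the highest, at 25 °C in darkness 34.4, 40.6 and 55.9, and at 29 °C 26.6, 36.7 and 42.5. The ranges at 18 °C and 25 °C overlapped, yet in all 24 pairs of libraries with the same day, hour and replicate number the 18 °C library was the higher. Between 18 °C and 29 °C the ranges of dsx did not overlap at all, as was the case for 11.1% of all genes tested in either direction. The log2 difference was 0.36 ± 0.04 (SE) for 18 °C against 25 °C (1.28-fold, adjusted p = 3.9e-12 by edgeR's quasi-likelihood test with Benjamini-Hochberg adjustment over 10702 genes). It was -0.56 ± 0.04 for 29 °C against 18 °C (adjusted p = 1.8e-21, same test). The smaller difference of 29 °C from 25 °C, -0.21 ± 0.04 (adjusted p = 0.00011, edgeR), was lower in 23 of 24 such pairs and missed the threshold on day 4 alone (-0.16, adjusted p = 0.0546) and without replicate 2 (adjusted p = 0.0584). In LD dsx stood at 33.6, 40.5 and 51.4 CPM, over the same range as in darkness at 25 °C, with a log2 difference of 0.01 and a 95% interval from -0.07 to 0.10.

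No 24 h curve of dsx passed the test, with amplitudes of 0.09 to 0.13 on the log2 scale in the 4 conditions. When the 6 hours were fitted as separate levels, differences between hours passed at 18 °C (edgeR adjusted p = 0.0333) and in LD (adjusted p = 0.0067). These calls are not to be set beside the shares of the 24 h curve, 0.196% at 18 °C and 14.2% in LD. The fit of separate hours passed more of all genes, and its counts are given with the alternatives in processing below. At 18 °C the 4 libraries of hour 16 held 60.6 to 65.7 CPM of dsx and those of hour 4 held 46.7 to 50.6, without overlap. In LD hour 16 held 41.8 to 51.4 CPM and hour 20 held 36.2 to 39.3. Hour 16 had the highest mean of dsx in all 4 conditions, with hour 4 or hour 20 the lowest.

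Of 10 other genes of the sex-determination hierarchy, all of them tested, 5 changed between 18 °C and 25 °C, 1 up and 4 down, with a median log2 difference of -0.0012 against -0.0035 over all genes. Like dsx, fru, the other regulator that transformer splices, was higher at 18 °C (log2 difference 0.38 ± 0.06, edgeR adjusted p = 7.5e-08), whereas transformer (tra), the splicing factor above both, was lower (-0.35 ± 0.04, adjusted p = 2.8e-14), as was snf (-0.25 ± 0.03, adjusted p = 2.6e-10). For 29 °C against 25 °C, 4 passed: tra (0.30) and tra2 (0.18), its partner in splicing, and snf rose, and fru fell by 0.20. Between 29 °C and 18 °C, 7 passed, 5 up and 2 down, with tra (0.65) and snf (0.36) the largest rises and fru (-0.58) and dsf (-0.32) the largest falls. In LD 3 passed, all lower than in darkness, with Sxl, the head of the cascade, at -0.14 and vir at -0.10. The shares of all genes that passed were 66.8%, 26.8%, 74.5% and 22.8%, in the same order of comparisons. In the 40 edgeR tests of a rhythm in these 10 genes none passed, and 1 had an unadjusted p below 0.05.

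Across the 5 genes, 4 differed in level between 18 °C and 25 °C, 3 between 29 °C and 25 °C, 4 between 29 °C and 18 °C and 2 between LD and darkness. Over all 10702 genes tested, 66.8%, 26.8%, 74.5% and 22.8% passed in these comparisons, so such counts are common in this table. The comparisons at 18 °C, 25 °C and 29 °C in darkness share libraries with each other, and the darkness libraries at 25 °C also serve the comparison with LD.

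The mean level of to barely followed temperature in darkness, but its course over the day did. Over all hours it stood at 86.5, 103 and 134 CPM at 18 °C (lowest, median and highest of 24), 75.5, 110 and 223 at 25 °C, 74.0, 99.8 and 148 at 29 °C and 60.0, 141 and 255 under LD. All 4 ranges overlapped, and the range was widest in LD. The log2 difference of 18 °C from 25 °C was -0.05, with a 95% interval from -0.16 to 0.06, and that of 29 °C from 18 °C was -0.09, from -0.20 to 0.02. Between 29 °C and 25 °C to was lower by a margin at the threshold (-0.14 ± 0.06, edgeR adjusted p = 0.0485), a call lost on either day alone, without replicate 2 and with no filter on low counts. In LD the mean of to over the day was higher than in darkness (0.24 ± 0.06, adjusted p = 0.00074, edgeR), with 6 of 12 time points higher, a call that missed the threshold without replicate 2 (0.15, adjusted p = 0.0598) and on day 4 alone (adjusted p = 0.051).

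In LD to had the largest swing of the 5 genes. At hour 20 the 4 libraries held 210 to 255 CPM, at hour 0 they held 172 to 248, and at hour 16 they held 146 to 177. At hour 4 they held 86.3 to 137 CPM, at hour 8 60.0 to 104 and at hour 12 72.1 to 93.5. Every library of hours 16, 20 and 0 lay above every library of hours 4, 8 and 12. The fitted 24 h curve had an amplitude of 0.87 ± 0.06 (log2, mean to peak; a 3.34-fold difference between peak and trough) and peaked at hour 20.9 ± 0.2 (edgeR quasi-likelihood test of the curve, adjusted p = 5.5e-23).

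In darkness at 25 °C the swing of to was smaller and its peak later. Hour 0 held 120 to 223 CPM and hour 12 held 80.8 to 101, without overlap, and the curve, of amplitude 0.37 ± 0.06, peaked at hour 1.17 ± 0.57 (edgeR adjusted p = 1.8e-05). At 29 °C hour 0 held 99.1 to 148 CPM and hour 16 held 74.0 to 88.9, for a curve of amplitude 0.30 ± 0.06 that peaked at hour 2.11 ± 0.71 (adjusted p = 0.0063). At 18 °C the hours overlapped, with hour 20 at 103 to 134 CPM and hour 8 at 86.5 to 106, and the curve did not pass (amplitude 0.14 ± 0.06, adjusted p = 0.945). The call at 25 °C was lost on day 5 alone, and that at 29 °C on either day alone and without replicate 2.

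These curves differed between conditions by a test of the difference itself, a vector of cosine and sine terms whose length is given on the log2 scale. The curve of to at 18 °C stood 0.47 ± 0.08 away from that at 25 °C (edgeR adjusted p = 0.00053) and 0.41 ± 0.08 from that at 29 °C (adjusted p = 0.0077), and the curve in LD stood 0.78 ± 0.08 from that in darkness (adjusted p = 4.1e-12). The curves at 29 °C and 25 °C were 0.11 apart, with a 95% interval reaching 0.27, and did not pass. The 2 differences that involve 18 °C were lost on either day alone, and that from 29 °C also without replicate 2, where the length was 0.34 (adjusted p = 0.107).

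**Figure D2:**
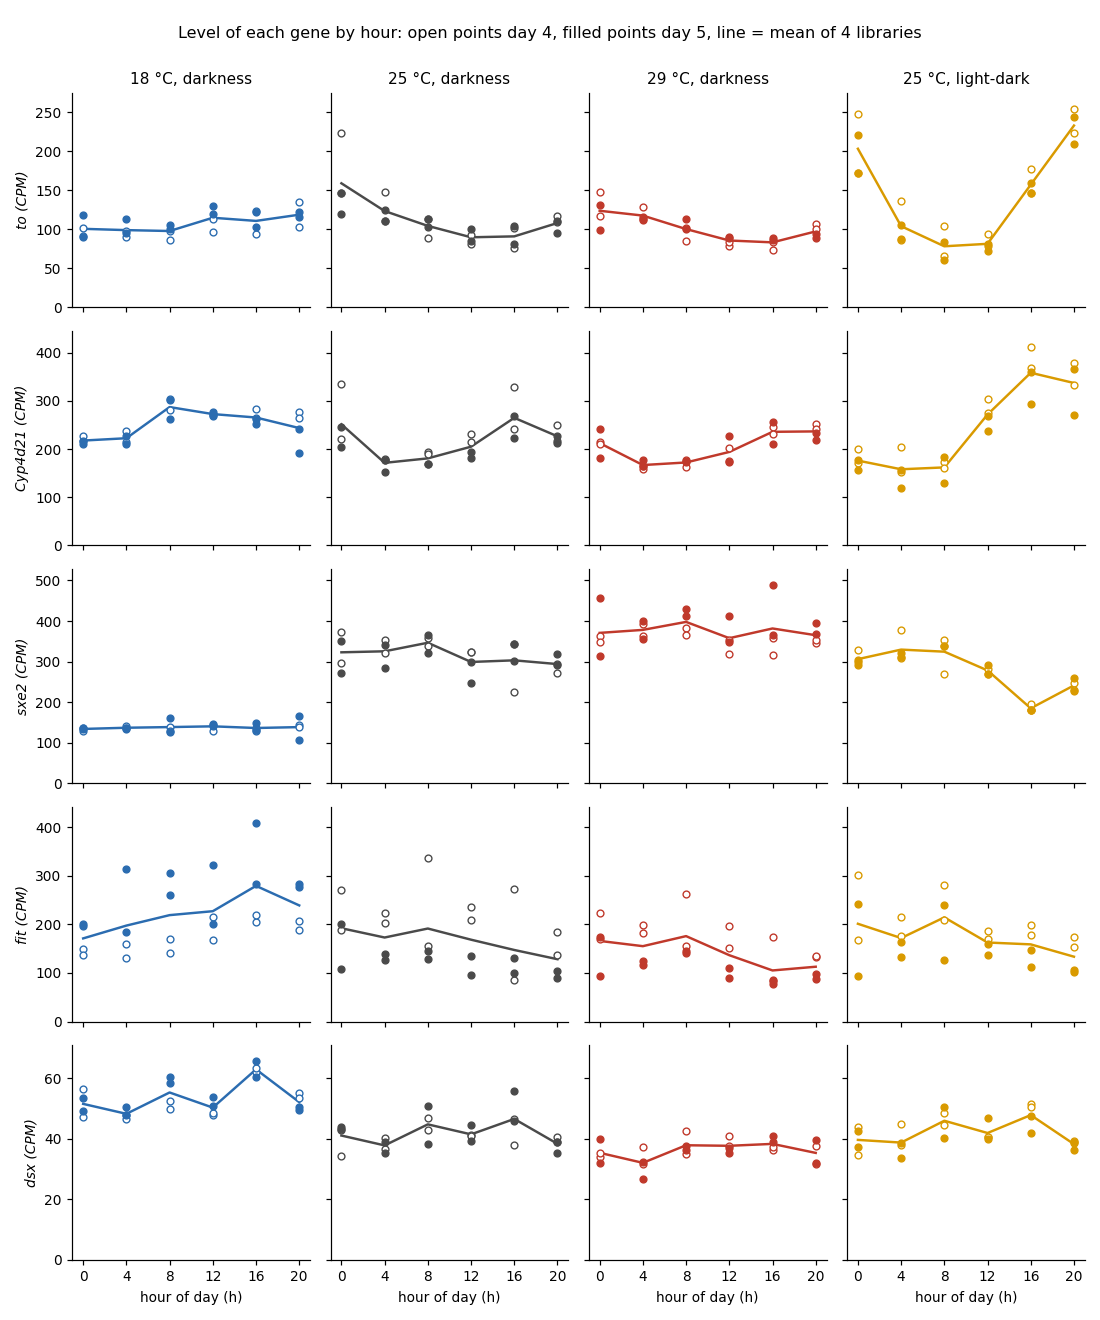
Level of each gene in CPM against the hour of day in h, 1 column per condition, with open points for day 4, filled points for day 5 and a line through the mean of 4 libraries. In LD to rises to 210 to 255 CPM at hour 20 and Cyp4d21 to 293 to 413 CPM at hour 16, where sxe2 falls to 181 to 196 CPM. At 18 °C the lines of to and sxe2 stay close to level.

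Of 22 listed relatives of to in the juvenile-hormone-binding family, 19 passed the filter, with mean levels from below 1 CPM to Jhbp3 at 264 to 325 CPM. Between 18 °C and 25 °C, 15 of these 19 changed, 11 up and 4 down, with a median log2 difference of 0.26 against -0.0035 over all genes. CG7079 (0.58 ± 0.05, edgeR adjusted p = 4.6e-17) and CG31189 (0.54 ± 0.05, adjusted p = 1.1e-15) were the furthest up, and dyw (-0.72 ± 0.10, adjusted p = 1.3e-09) and Jhbp16 (-0.47 ± 0.10, adjusted p = 1.5e-05) the furthest down, while to itself did not pass. Between 29 °C and 18 °C, 15 passed, 5 up and 10 down, with dyw (1.17) and Jhbp16 (0.62) up and CG31189 (-0.79) and CG7079 (-0.68) down. For 29 °C against 25 °C 4 passed, dyw (0.45), Jhbp5 (0.26) and Jhbp7 up and CG31189 (-0.26) down. In LD 4 passed, with Jhbp2 (0.40) and CG11854 (0.22), the downstream neighbour of to, among 3 that were higher, and Jhbp5 (-0.27) lower. Over all genes tested, 66.8%, 74.5%, 26.8% and 22.8% passed in these comparisons, in the order given.

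The family also cycled in LD, at hours that were spread over the day. There 12 of the 19 relatives had a 24 h curve that passed the test, or 63.2%, beside 14.2% of all genes tested, with a median amplitude of 0.27 against 0.075. The relatives were listed by gene name, not by a comparison of proteins, and with earlier results of these data known. The amplitudes of these 12 ran from 0.171 for Jhbp3 to 1.05 for Jhbp15, which had a mean level of 3.25 CPM in LD. Only 3 peaked within 4 h of to: Jhbp3 at hour 21.5, CG11854 at hour 19.3 and Jhbp15 at hour 0.18. CG11854, which reached an amplitude of 0.78 ± 0.08 (edgeR adjusted p = 8.0e-13), had a mean level of 2.89 CPM there, against 143 CPM for to. The upstream neighbour Jhbp7 peaked at hour 13.1, 7.80 h away from to, and dyw and Jhbp11 at hours 10.95 and 9.82. In darkness 0 of 57 edgeR tests of the 19 passed, with 5 at an unadjusted p below 0.05, while to passed at 25 °C and 29 °C. The curves of 7 of the 19 differed between LD and darkness, against 5.26% of all genes.

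**Figure D3:**
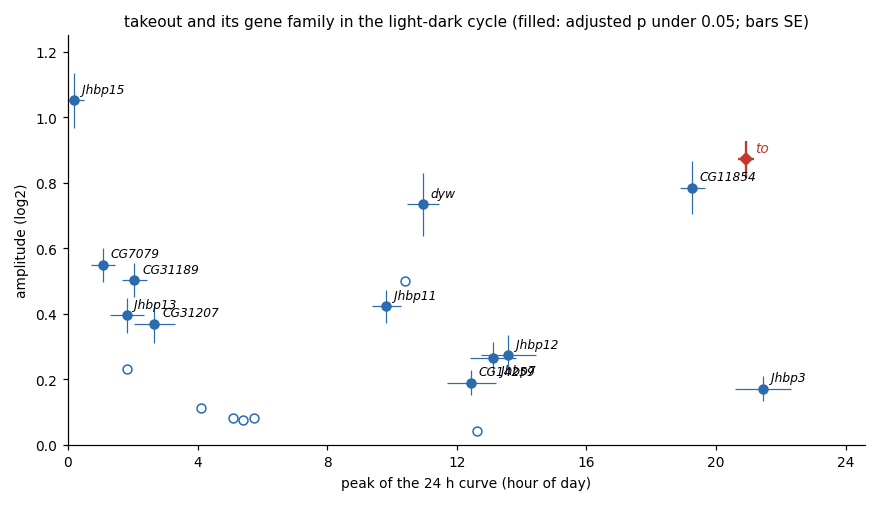
Amplitude (log2) against the peak hour of the 24 h curve in LD for to (diamond) and 19 relatives (circles, filled where the edgeR test passed), with SE bars. The peaks of the 12 relatives that passed are spread from hour 0.18 to hour 21.5. Jhbp15, with a mean level of 3.25 CPM in LD, has the highest amplitude at 1.05.

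Cyp4d21 was highest at 18 °C in darkness. Its level ran from 192 through a median of 262 to 305 CPM at 18 °C, from 152 through 213 to 335 at 25 °C, from 160 through 206 to 256 at 29 °C and from 119 through 221 to 413 under LD. The ranges overlapped in every comparison, and the 18 °C library was higher than its 25 °C counterpart in 18 of 24 pairs. The log2 difference of 18 °C from 25 °C was 0.23 ± 0.05 (edgeR adjusted p = 1.7e-05), which missed the threshold without replicate 1 (0.14, adjusted p = 0.0622). That of 29 °C from 18 °C was -0.32 ± 0.05 (adjusted p = 5.3e-09), lower in 21 of 24 pairs. The differences of 29 °C from 25 °C (-0.09, 95% interval from -0.18 to 0.00) and of LD from darkness (0.10, from 0.01 to 0.20) did not pass after adjustment.

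Over the day in LD, Cyp4d21 rose earlier than to. The 4 libraries of hour 16 held 293 to 413 CPM, those of hour 20 held 271 to 379 and those of hour 12 held 239 to 305. The libraries of hours 0, 4 and 8 held 156 to 200, 119 to 204 and 130 to 184 CPM, all below the lowest library of hour 12. The curve had an amplitude of 0.68 ± 0.05, a 2.58-fold difference between peak and trough, and peaked at hour 16.7 ± 0.3 (edgeR adjusted p = 2.4e-21).

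In darkness Cyp4d21 kept a similar peak hour at 25 °C and 29 °C with a smaller swing. At 25 °C hour 16 held 222 to 329 CPM and hour 4 held 152 to 179, with an amplitude of 0.28 ± 0.05 and a peak at hour 18.7 ± 0.6 (edgeR adjusted p = 0.00033). At 29 °C hour 20 held 219 to 252 CPM and hour 4 held 160 to 178, with an amplitude of 0.28 ± 0.05 and a peak at hour 18.5 ± 0.6 (adjusted p = 0.0011). Both calls were lost on either day alone and without replicate 1, where the amplitudes were 0.31 and 0.26. The 2 curves were 0.02 apart, with a 95% interval reaching 0.15.

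At 18 °C the order of the hours was different for Cyp4d21. There hour 8 held 262 to 305 CPM and hour 0 held 210 to 228, without overlap, whereas at 25 °C hour 8 (169 to 194 CPM) lay below hour 0 (204 to 335 CPM). The fitted curve at 18 °C, with an amplitude of 0.19 ± 0.05 and a peak at hour 12.0 ± 0.9, did not pass (edgeR adjusted p = 0.178). It did pass in an edgeR fit of the 18 °C libraries alone (adjusted p = 0.0295). Differences between hours also passed with the hours as 6 separate levels (edgeR adjusted p = 0.0255). More of all genes passed that fit than the curve, by the counts given with the alternatives in processing below. The curve at 18 °C stood 0.37 ± 0.07 from that at 25 °C (adjusted p = 0.0023) and 0.36 ± 0.07 from that at 29 °C (adjusted p = 0.0049), and both differences were lost on either day alone and without either replicate. The curve in LD stood 0.46 ± 0.07 from that in darkness (adjusted p = 5.7e-07).

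The 5 other Cyp4d genes listed moved in both directions with temperature. Between 18 °C and 25 °C, 4 of 5 changed: Cyp4d8 (0.41 ± 0.04, edgeR adjusted p = 1.5e-13) rose, and Cyp4d14 (-0.87 ± 0.11, adjusted p = 4.0e-11), Cyp4d2 (-0.56) and Cyp4d1 fell, for a median of -0.54. From 18 °C to 29 °C the same number passed, Cyp4d14 (1.24) and Cyp4d1 (0.68) among 3 up and Cyp4d8 (-0.61) down. From 25 °C to 29 °C Cyp4d14 (0.36) rose and Cyp4d8 (-0.20) fell, and in LD Cyp4d14 (-0.36) was the only one to pass. In these comparisons, in the order given, 66.8%, 74.5%, 26.8% and 22.8% of all genes tested passed. In the 20 edgeR tests of a rhythm 1 passed, that of Cyp4d20 in LD, with an amplitude of 0.17 and a peak at hour 8.48.

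The lipase-family gene sxe2 showed the largest effect of temperature among the 5. At 18 °C its level was 107 CPM in the lowest library, 137 in the median and 165 in the highest, at 25 °C in darkness 226, 322 and 373, at 29 °C 313, 365 and 489, and in LD 181, 288 and 379. The 24 libraries at 18 °C lay below all 24 at 25 °C and all 24 at 29 °C, as was the case for 4.64% and 11.1% of all genes tested in either direction. The log2 difference of 18 °C from 25 °C was -1.19 ± 0.04 (0.438-fold, edgeR adjusted p = 2.2e-40), between -1.45 and -0.75 in the 24 pairs of libraries, and that of 29 °C from 18 °C was 1.44 ± 0.04 (2.72-fold, adjusted p = 7.9e-47). Neither call was lost under any alternative tried. The median of roX1 was also lower at 18 °C, at 379 CPM against 555 at 25 °C. The medians of the yolk protein sum were 40735 and 40266 CPM. Taken as deviations from the condition mean on the log2 scale, sxe2 and roX1 had r = -0.09 over 96 libraries. Within conditions r was 0.02, -0.48 and -0.26 at 18 °C, 25 °C and 29 °C in darkness, and 0.12 in LD. The part of roX1 and the yolk protein genes in the difference was not tested here.

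From 25 °C to 29 °C sxe2 rose less, by 0.25 ± 0.04 (edgeR adjusted p = 4.7e-06), higher in 22 of 24 pairs, which missed the threshold on day 4 alone (0.16, adjusted p = 0.053). In LD the mean of sxe2 over the day was lower than in darkness (-0.21 ± 0.04, adjusted p = 0.00024), lower at 9 of 12 time points and in 18 of 24 pairs, and this missed the threshold on day 5 alone (adjusted p = 0.0714) and without replicate 2 (-0.12, adjusted p = 0.269).

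That difference in LD was concentrated in the later hours. At hours 0, 4 and 8 the LD libraries held 293 to 328, 308 to 379 and 268 to 353 CPM of sxe2, over ranges that overlapped those of darkness at 25 °C (272 to 373, 284 to 354 and 322 to 366). At hour 16 they held 181 to 196 CPM, and at hour 20 228 to 260, against 226 to 344 and 271 to 318 in darkness. Both hours lay below the libraries of darkness at the same hour without overlap, with 4 libraries on each side. The share of all genes that separate in this way was not counted. The curve in LD had an amplitude of 0.38 ± 0.04 and a peak at hour 4.86 ± 0.45 (edgeR adjusted p = 5.2e-10), and differed from that in darkness by 0.28 ± 0.06 (adjusted p = 0.0047), a difference that was lost on either day alone and without either replicate. In darkness the amplitudes of sxe2 were 0.02 at 18 °C, 0.10 at 25 °C and 0.03 at 29 °C, and none passed.

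Rhythms in LD passed for 3 of the 5 genes, against 14.2% of all genes tested. In darkness 2 of 5 passed at 25 °C and 2 of 5 at 29 °C, against 0.439% and 0.14%, and 0 of 5 at 18 °C by the edgeR test of the 24 h curve, against 0.196%. At 18 °C 3 of the 5 had an unadjusted p below 0.05 (Cyp4d21, fit and dsx), and DESeq2 also passed 0 of 5. The differences between curves passed for 2 of 5 in 18 °C against 25 °C (0.0934% of all genes), for 2 of 5 in 29 °C against 18 °C (0.121%), for 3 of 5 in LD against darkness (5.26%) and for 0 of 5 in 29 °C against 25 °C (0%), where 0 had an unadjusted p below 0.05 and DESeq2 also passed 0. The genes to and Cyp4d21 were known as rhythmic in part of these libraries when the list was made. Of 8 core clock genes, 7 had a rhythm in LD, 4 at 25 °C, 1 at 18 °C (per) and 0 at 29 °C, where 5 had an unadjusted p below 0.05. The curve of per peaked at hour 5.22 at 18 °C and at hour 12.7 at 25 °C. Of the 8 clock genes, 2 had curves that differed between 18 °C and 25 °C. Any link of these to the curves of to and Cyp4d21 was not tested.

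**Figure D4:**
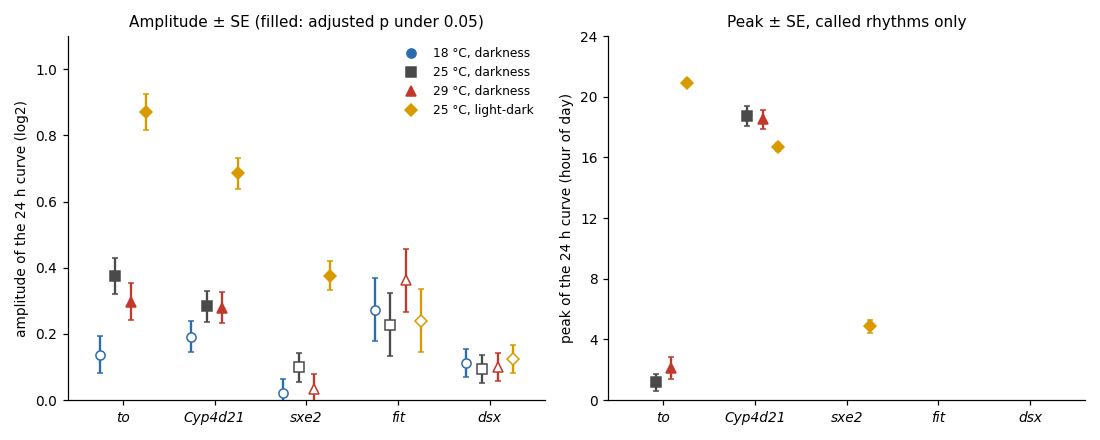
Left, amplitude (log2) of the 24 h curve of each gene in each condition, filled where it passed the edgeR test; right, peak (hour of day) of the curves that passed, with SE bars in both. The amplitude of to is 0.87 in LD against 0.14 to 0.37 in darkness, and the peaks of Cyp4d21 lie between hours 16.7 and 18.7.

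In LD the hour profiles of Cyp4d21 and sxe2 ran opposite to each other. Taken as deviations from the condition mean on the log2 scale, their levels had r = -0.79 over the 24 LD libraries, against 0.42, 0.14 and 0.15 at 18 °C, 25 °C and 29 °C in darkness. The genes to and Cyp4d21, the peaks of which were about 4 h apart, had r = 0.46 there. These are descriptions of libraries that share an hour, and a shared hour gives a shared deviation.

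The female-biased gene fit varied widely between libraries of 1 condition. Its level was 132, 203 and 408 CPM at 18 °C (lowest, median and highest), 86.3, 142 and 336 at 25 °C, 77.1, 138 and 262 at 29 °C and 94.1, 168 and 301 under LD, and all ranges overlapped. Its SD was 31.7% to 39.7% of its mean in the 3 conditions in darkness, above the other 4 genes in each, and 31.2% in LD, below to (45.0%) and Cyp4d21 (37.1%). The mean over both days was higher at 18 °C than at 25 °C by 0.42 ± 0.09 (edgeR adjusted p = 6.5e-05), but the direction turned on day 4 alone (-0.25, adjusted p = 0.108) and the call was lost without replicate 1 (0.09, adjusted p = 0.505). It was lower at 29 °C than at 18 °C by 0.65 ± 0.09 (-0.65, adjusted p = 3.0e-09), a difference of -0.03 on day 4 alone. The differences of 29 °C from 25 °C (-0.23, 95% interval from -0.42 to -0.04) and of LD from darkness (0.09, from -0.10 to 0.28) did not pass.

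Those averages hide opposite shifts between the days. On day 4 the 12 libraries at 18 °C held 132, 169 and 220 CPM of fit (lowest, median and highest), and on day 5 184, 280 and 408. At 25 °C in darkness day 4 held 86.3, 205 and 336 CPM and day 5 held 88.7, 127 and 202, at 29 °C day 4 held 84.0, 173 and 262 and day 5 77.1, 104 and 174, and in LD day 4 held 153, 182 and 301 and day 5 94.1, 135 and 242. The gene fit thus rose from day 4 to day 5 at 18 °C and fell at 25 °C and 29 °C, with overlap between the days in each. The log2 shift from day 4 to day 5 was 0.64 ± 0.13 at 18 °C (edgeR adjusted p = 0.0026), -0.73 ± 0.13 at 25 °C (adjusted p = 0.00062) and -0.63 ± 0.13 at 29 °C (adjusted p = 0.015), and -0.46 ± 0.13 in LD, which did not pass (adjusted p = 0.192). Of all genes, 2.21%, 2.71%, 0.29% and 0.168% had a shift that passed, and none of the other 4 genes did in any condition by edgeR; 3 of their 16 shifts had an unadjusted p below 0.05.

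The shift at 18 °C differed from that at 25 °C by 1.37 ± 0.19 (edgeR adjusted p = 8.3e-07, passed by 2.37% of all genes), and the shift at 29 °C from that at 18 °C by -1.26 ± 0.19 (adjusted p = 1.5e-05, 0.738% of all genes). This comparison was added after the data had been seen. The yolk protein genes shifted with fit. Their summed mean went from 34624 CPM on day 4 to 48147 on day 5 at 18 °C, from 47728 to 34885 at 25 °C, from 40739 to 30889 at 29 °C and from 48119 to 37426 under LD, a day 5 to day 4 ratio of 1.39, 0.731, 0.758 and 0.778 beside 1.55, 0.601, 0.65 and 0.732 for fit.

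**Figure D5:**
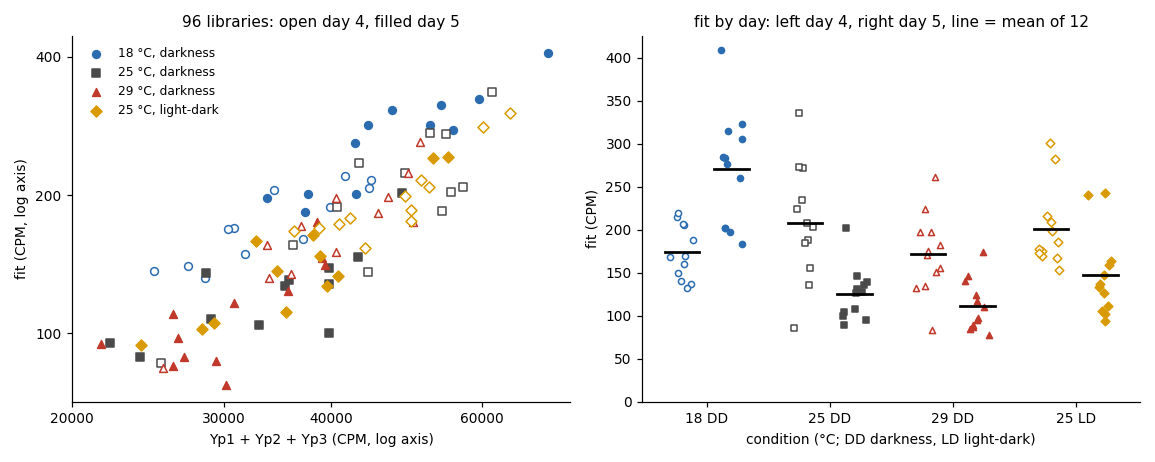
Left, fit against the summed yolk protein genes in CPM on log axes, 1 point per library (open day 4, filled day 5); right, fit in CPM by condition and day with the mean of 12 libraries. Libraries with more yolk protein transcripts hold more fit (r = 0.897 over 96 libraries), and the mean of fit goes up from day 4 to day 5 at 18 °C and down in the other 3 conditions.

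Library by library, fit followed the yolk protein sum closely. Taken as deviations from the condition mean on the log2 scale, r was 0.897 and Spearman's rho 0.905 over 96 libraries, r was 0.892 without the 2 libraries with the most extreme yolk protein deviations, and r was 0.86 to 0.93 within the 4 conditions. Within the 8 sets of 12 libraries that share condition and day, r ran from 0.754 to 0.908. The points share a library and its depth. The male RNA roX1 ran the other way, with r = -0.48 over 96 libraries and -0.51 to -0.45 within conditions. For to, Cyp4d21, sxe2 and dsx the same r with the yolk protein sum was 0.15, -0.07, 0.29 and 0.30. Within conditions it ran for to from 0.35 to 0.44 in darkness and was -0.12 in LD, and for Cyp4d21 it ran from -0.27 to 0.20. For sxe2 it ran from 0.12 at 29 °C to 0.59 at 25 °C in darkness, and for dsx from 0.21 to 0.49, the highest in LD. The overlapping asRNA:CR45046, which shares 6.0% of the exonic bases of fit, had means of 164 CPM at 18 °C, 74.2 at 25 °C, 56.0 at 29 °C and 83.5 under LD, and reads of the shared bases cannot be assigned to 1 of them.

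With the yolk protein sum and roX1 added to the edgeR fit as covariates, each as its deviation from the condition mean, the calls of to, Cyp4d21 and sxe2 were the same as without them in all levels, curves and differences between curves. These covariates were chosen after the data had been seen, and they leave differences between condition means in place. The difference of fit between 18 °C and 25 °C was then 0.44 (adjusted p = 6.4e-11), that between 29 °C and 25 °C passed (-0.22, adjusted p = 0.0011), and the amplitudes of its curves were 0.05 to 0.18. The curve of dsx in LD passed in this fit (amplitude 0.13, adjusted p = 0.0365).

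In the edgeR fit of all 96 libraries a 24 h curve of fit did not pass in any condition, with amplitudes of 0.23 to 0.36. Its fitted peak was at hour 15.0 at 18 °C and at hours 5.50, 4.997 and 5.87 at 25 °C, 29 °C and under LD. The curve at 29 °C stood 0.61 ± 0.13 from that at 18 °C (edgeR adjusted p = 0.0654); this passed with DESeq2 (adjusted p = 0.0165) and in a fit of the 48 libraries of those conditions alone (adjusted p = 0.0044).

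Among 8 listed targets of dsx and other sex-biased head genes, 7 passed the filter, and the desaturase Fad2, which makes female pheromone precursors, did not, with at most 0.603 CPM in a library. In each of the 3 temperature comparisons 3 of the 7 changed, and in LD 1, Obp99a (0.25 ± 0.09, edgeR adjusted p = 0.0292). Among all genes tested, 66.8% passed for 18 °C against 25 °C and 26.8% for 29 °C against 25 °C. For 29 °C against 18 °C and for LD these shares were 74.5% and 22.8%. Obp99b, an odorant-binding protein gene, went the same way as sxe2, with means of 17.3 CPM at 18 °C, 117 at 25 °C, 167 at 29 °C and 120 under LD, and log2 differences of -2.70 ± 0.17 for 18 °C against 25 °C (adjusted p = 3.7e-25), 0.54 ± 0.16 for 29 °C against 25 °C and 3.24 ± 0.16 for 29 °C against 18 °C. Yp2 (0.30) and bab2 (0.26), a regulator of pigmentation, rose at 18 °C against 25 °C, as dsx did. The mean of fit over both days was also higher there. On day 4 alone the direction of fit turned, and without replicate 1 its call was lost. The other yolk protein genes did not pass there, with Yp3 at -0.07 and Yp1 at means of 16489 CPM at 18 °C and 17816 at 25 °C. At 29 °C against 18 °C Yp2 (-0.74) and bab2 (-0.41) fell, while Yp3 (-0.08) did not pass. Against 25 °C, Yp2 (-0.43) and bab2 (-0.15) fell at 29 °C. In the 28 edgeR tests of a rhythm none of the 7 passed, and 6 had an unadjusted p below 0.05. The medians of the list were -0.05, -0.14, -0.08 and 0.04 in the order 18 °C against 25 °C, 29 °C against 25 °C, 29 °C against 18 °C and LD against darkness.

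Of 10 general markers of the fat body, 6 changed between 18 °C and 25 °C, 1 up and 5 down (median -0.16, range -0.615 to 0.588), 1 between 29 °C and 25 °C, 6 between 29 °C and 18 °C, 5 up and 1 down (median 0.18), and 2 in LD. Beside these counts, 66.8%, 26.8%, 74.5% and 22.8% of all genes tested passed, in the same order. The fatty acid synthase gene FASN1 was the only one of them with a rhythm, in LD, at an amplitude of 0.35 and a peak at hour 9.64. The summed level of the 10 had r = 0.62 with dsx over 96 libraries (0.44 to 0.71 within conditions) and 0.38 with fit (0.20 to 0.68). Over all libraries r was 0.14 or less with to, Cyp4d21 and sxe2, but the conditions differed. With to it was 0.59 at 18 °C and -0.26 in LD, with sxe2 it was 0.43 at 25 °C in darkness, 0.63 at 29 °C and -0.22 in LD, and with Cyp4d21 it was at most 0.20.

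The genes whose deviations were most like those of each gene, out of all tested, were found by Pearson's r over the 96 libraries after the condition means were taken out. Since they were picked by this r, similar peak hours follow in part from the choice. For to they were CG34134 (r = 0.76), pdgy (0.75), an acyl-CoA synthetase gene, and CG1441 (0.73). Their curves in LD peaked at hours 22.5, 20.6 and 22.5, with amplitudes of 2.43, 0.31 and 0.34. Within LD their r with to was 0.85, 0.91 and 0.83, against 0.50, -0.12 and 0.61 at 18 °C. CG34134, unlike to, also had a rhythm at 18 °C, with an amplitude of 0.55 and a peak at hour 17.3 (edgeR adjusted p = 1.6e-05).

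For Cyp4d21 the closest were CG10237 (r = 0.84), osy (0.79), an ABC transporter gene, and Gfat1 (0.75), an enzyme gene of amino sugar synthesis, with LD peaks at hours 16.2, 17.5 and 18.0. Within LD their r with Cyp4d21 was 0.96, 0.92 and 0.83, against 0.41, 0.13 and 0.33 at 18 °C. For sxe2 they were Cyp305a1 (r = 0.82), a P450 gene, and Hpd (0.77) and Tat (0.76), which encode enzymes of tyrosine breakdown, with peaks at hours 4.93, 4.07 and 4.71. Their temperature responses were not all alike: Hpd was lower at 18 °C than at 25 °C (-0.84 ± 0.06, edgeR adjusted p = 1.3e-22) like sxe2, while Cyp305a1 (0.36 ± 0.04, adjusted p = 1.6e-11) and Tat (0.12 ± 0.04, adjusted p = 0.0164) were higher. For fit the closest were Yp2 (r = 0.90), Yp3 (0.90) and Elal (0.87). For dsx they were the transcription factor genes hth (r = 0.78) and Sox102F (0.75) and fax (0.75), and at 18 °C against 25 °C all 3 were higher, by 0.18, 0.46 and 0.17.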

How the data were processed

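The table holds expected counts per gene for 96 head libraries (17610 genes), deposited by the authors unnormalised; 40.2% of nonzero values are not whole, so they were rounded. Total RNA was poly-A selected with a directional kit, per the labels. The submitters' processing notes name fastp 0.23.2, HISAT2 2.2.1, featureCounts and Subread 2.0.8; build, annotation, strand setting and treatment of multi-mapping reads are not given in the sources used here. Fractional values may split reads between genes that share sequence. Gene symbols and positions come from the Ensembl BDGP6.54 annotation by FBgn identifier.

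Genes were kept by filterByExpr on condition (10702 of 16896 with a rounded count), scaled by TMM and fitted with edgeR 4.0.16 (R 4.3.3) quasi-likelihood: 16 terms, per condition its mean, the cosine and sine of a 24 h curve and the step from day 4 to day 5, with 80 residual degrees of freedom. Means, curves, differences between curves and day shifts were tested with Benjamini-Hochberg adjustment over all genes at 0.05. CPM divides each count by the library's total over the kept genes, scaled by its TMM factor. Totals over all genes, before scaling, were 17.3 M to 34.7 M. Log2 CPM for correlations used a prior count of 2. Folds are from the fit. Where hours are compared by overlap of their libraries, the share of all genes that separate in that way was not counted. DESeq2 1.42.0, other filters, single days, left-out replicates, a replicate block and covariates were alternatives. Design notes had assumed whole counts. The 5 genes, the gene lists (takeout family, sex determination hierarchy, dsx targets, Cyp4d subfamily, fat body, core clock, and markers of neurons, eye and glia, gut, egg chamber, testis and accessory gland) and the named genes (from each list up to 2 called genes with the largest rise and fall per comparison, and the 3 genes most like each of the 5) were chosen with earlier results of these data known. Replicates are labelled biological, with no statement of their source, so p-values measure the spread between these samples.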

Additional observations from a re-analysis of the deposited data

Results flagged for a closer look

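Each result below differed between conditions by a test of the difference itself, in edgeR's quasi-likelihood fit with Benjamini-Hochberg adjustment over 10702 genes. The 24 h curve of to differed between 18 °C and 25 °C in darkness by a vector of length 0.469 (log2), between 29 °C and 18 °C by 0.412 and between LD and darkness by 0.781. For Cyp4d21 the same lengths were 0.37, 0.357 and 0.463. For sxe2 the curve in LD differed from that in darkness by 0.279. The differences of to that involve 18 °C were lost on either day alone, and that from 29 °C also with a replicate left out. Those of Cyp4d21 that involve 18 °C, and that of sxe2, were lost on either day alone and without either replicate. Of all genes, 0.0934%, 0.121% and 5.26% passed for 18 °C against 25 °C, 29 °C against 18 °C and LD against darkness.

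The shift of fit from day 4 to day 5 differed between 18 °C and 25 °C in darkness by 1.37 (log2) and between 29 °C and 18 °C by -1.26, the second with the sign of 29 °C minus 18 °C. Of all genes, 2.37% and 0.738% passed these tests, which were added after the data had been seen. The yolk protein sum moved up between the days at 18 °C, with a ratio of 1.39, and down at 25 °C and 29 °C, with ratios of 0.731 and 0.758. The part of the yolk protein level in these shifts was not tested.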

How the results depend on the processing

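Over the alternatives, the level tests of the 5 genes gave the same direction and call in 174 values, lost the call in 14, gained one in 7 and turned direction in 5. For curves these were 203, 10, 7 and 0, and for differences between curves 179, 17, 4 and 0. The cause of the changes was not tested, except that single days and single replicates leave fewer libraries. The turned values, none of which passed, were to at 18 °C against 25 °C on day 5 alone (0.047), fit there on day 4 alone (-0.25), Cyp4d21 at 29 °C against 25 °C on day 5 alone (0.0097), and in LD fit on day 4 alone (-0.045) and dsx on day 5 alone (-0.048).

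On day 4 alone the level of 799 genes and 0 of the 5 passed at 29 °C against 25 °C, and that of 568 genes and 1 of the 5 in LD, beside 2864 and 2440 genes on both days. On day 5 alone these were 1653 genes, and 896 genes and 1 of the 5. Curves passed on day 4 alone for 2, 14, 4 and 597 genes (18 °C, 25 °C, 29 °C and LD), beside 21, 47, 15 and 1520 on both days, with 1 of the 5 at 25 °C and 0 at 29 °C, and on day 5 alone for 0, 0, 0 and 582 genes, with 0 of the 5 at 25 °C and 0 at 29 °C. Differences between curves passed on day 4 alone for 2 genes between 18 °C and 25 °C, 3 between 29 °C and 18 °C and 120 for LD against darkness, beside 10, 13 and 563, and on day 5 alone for 0, 0 and 176. Of the 5 genes 0 passed on either day in the first 2 of these.

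With 1 replicate left out, the 5 genes gave 2 to 4 level calls between 18 °C and 25 °C, 1 to 3 between 29 °C and 25 °C and 0 to 2 for LD against darkness, and all genes 1042 to 2104 and 802 to 1860 in the latter 2. Curves passed for 0 to 0, 3 to 19, 1 to 11 and 690 to 1013 genes in the 4 conditions, with 1 to 2 of the 5 at 25 °C and 1 to 1 at 29 °C. Differences between curves passed for 2 to 8 genes (18 °C against 25 °C), 0 to 2 (29 °C against 25 °C), 4 to 4 (29 °C against 18 °C) and 213 to 243 (LD), with 1 to 1 of the 5 in the first and 0 to 1 in the third.

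With the hours as 6 levels, 325, 768, 337 and 2515 genes passed (18 °C, 25 °C, 29 °C and LD), with 2 of the 5 at 18 °C. With the libraries of 1 condition alone, 12, 21 and 9 genes passed at 18 °C, 25 °C and 29 °C, with 1 of the 5 at 18 °C. DESeq2 passed 74 genes at 25 °C and 24 at 29 °C, and with no filter 71 passed at 25 °C. With the yolk protein and roX1 covariates, added after seeing the data, curves passed for 50, 190 and 63 genes in darkness and differences for 23 (18 °C against 25 °C) and 35 (29 °C against 18 °C).

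The labels do not say what libraries with the same replicate number share. Over 72 correlations of replicate deviations between conditions, across genes, the median was 0.126, with 42 over 0.1 and 11 below 0. At hours 0, 8 and 16 of day 4 and hour 0 of day 5 every pair of conditions lay over 0.1 (0.181 to 0.619), but not at the other time points. For fit, the replicate differences over 12 time points had r from 0.136 to 0.749 between conditions, and for dsx from 0.254 to 0.58. Not every pair was over 0.1, so the fit without a block was kept for the report. With a replicate block, levels in LD passed for 3846 genes, curves at 29 °C for 24, and differences between curves for 75 (18 °C against 25 °C), 6 (29 °C against 25 °C), 61 (29 °C against 18 °C) and 1288 genes (LD). Under the block, fit gained calls at 29 °C against 25 °C (-0.22) and for its curve at 29 °C (0.36), and for differences of curves at 18 °C against 25 °C (0.48) and 29 °C against 18 °C (0.61), and to gained 1 at 29 °C against 18 °C (-0.09). It changed no other call of the 5 genes.

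The 5 genes held 540.5 counts or more in every library. The limits are 12 time points per condition, gene-level counts that merge the forms of dsx, and whole heads of uncertain sex make-up.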
